A study of Homo sapiens with 48 samples.

Results

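The genes described here encode the subunits of the transcription factor NF-kB (NFKB1, NFKB2, REL, RELA and RELB) and genes that act back on it (the inhibitors NFKBIA and NFKBIE, TNFAIP3 and BIRC3). The members were all probe sets whose single gene symbol in the platform annotation was on this list of 9 genes, which gave 17 of the 54613 probe sets tested and 8 of the 19775 genes with a probe set. NFKB1, RELB and NFKBIE had 1 probe set each, RELA, NFKBIA and TNFAIP3 had 2, NFKB2 had 3 and REL had 5. BIRC3 was not analysed here. Where a gene had several probe sets, its value was taken from the probe set with the highest mean, and the others are given where they differed.

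Gene expression was measured on 48 Affymetrix U133 Plus 2.0 arrays of T47D-YA cells, a line of luminal breast cancer cells that lacks the adaptor proteins IRS-1 and IRS-2 but keeps the receptor for insulin-like growth factor I (IGF-I). The cells stably expressed human IRS-1 (clones #10 and #20) or human IRS-2 (clones #1 and #6) and were held without serum for 24 h. They then received serum-free medium (SFM) with fibronectin (FN), either alone or with IGF-I. They were taken at 4 h or at 24 h, in 16 groups of 3 arrays. Every line therefore was 1 clone that carried its adaptor as a transgene, with no group of the parental cells among the arrays used here. The error of each comparison comes from the spread between the 3 arrays of a group, pooled for each probe set over all 16 groups. The labels do not tie the arrays of a group to separate cultures. A difference between isoforms thus rests on 2 clones of each. In whole cultures, fewer cells that express a gene and less RNA per cell cannot be told apart.

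NF-kB proteins bind DNA as dimers and are held in the cytoplasm by inhibitor proteins of the IkB family. Receptors for cytokines and microbial products, and some growth factor pathways, activate the IkB kinases, the inhibitor is degraded and the dimers enter the nucleus. Several of the genes they switch on feed back on the pathway, and NFKBIA and TNFAIP3 are the textbook examples, so that their mRNA is often read as an early sign of NF-kB activity.

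IGF-I moved these genes by small amounts. After 4 h NFKBIA fell by 0.41 (log2) in IRS-1 #10 and by 0.38 in IRS-1 #20, and its change was -0.04 in IRS-2 #1 and 0.13 in IRS-2 #6, neither past the test. TNFAIP3, NFKBIE and REL fell in IRS-1 #10, and NFKB2, RELB and TNFAIP3 rose in IRS-2 #6. The falls of NFKBIE and REL and the rise of TNFAIP3 were each lost when any of 5 of the 6 arrays was left out. For NFKB2 and RELB the 4 h SFM arrays of IRS-2 #6 had the lowest mean of all groups on the brightest probe sets. No member reached 1.5-fold in response to IGF-I in any clone or at either time. Without IGF-I the clones themselves differed more, with REL and TNFAIP3 highest in IRS-1 #10.

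NFKBIA and TNFAIP3, the feedback genes whose 4 h responses differed most between the isoforms, have binding sequences for NF-kB just upstream of their starts. The 250 bases before the start of each gene are shown from the RefSeq promoter windows (GRCh38.p14), written 5′ to 3′ on the strand of the gene, with matches to the kappaB consensus decamer in capitals. The NFKBIA stretch is chr14:35404750-35404999 on the minus strand and the TNFAIP3 stretch is chr6:137867009-137867258 on the plus strand.
NFKBIA: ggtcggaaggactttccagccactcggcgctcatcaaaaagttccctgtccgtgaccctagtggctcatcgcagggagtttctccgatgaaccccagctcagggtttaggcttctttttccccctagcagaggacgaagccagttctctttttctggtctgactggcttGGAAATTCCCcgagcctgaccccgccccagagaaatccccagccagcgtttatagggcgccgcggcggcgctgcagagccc
TNFAIP3: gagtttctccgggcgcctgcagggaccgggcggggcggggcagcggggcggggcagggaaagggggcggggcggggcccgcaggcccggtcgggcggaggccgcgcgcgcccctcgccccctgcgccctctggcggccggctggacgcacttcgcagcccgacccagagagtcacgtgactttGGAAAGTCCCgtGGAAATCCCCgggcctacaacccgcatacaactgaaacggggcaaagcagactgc
In NFKBIA 1 match began 81 bases before the start, and in TNFAIP3 2 matches began 67 and 55 bases before it, all of them reading as the decamer on the opposite strand. Both strands were searched and overlapping matches were counted. Windows of 300 bases, from 250 before to 50 after the start, were held for 6 of the 8 genes, with 10 windows in all. A match was in 6 of these 10 windows, 1 each of NFKB1, REL, NFKBIA and TNFAIP3 and 2 of NFKB2, while the 2 windows of RELA had none. Of all 35116 promoter windows of this length, 11.3% held a match. A match describes letters in the window and is no measure of binding. RELB and NFKBIE had no window.

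Values are given as deposited, on a log2 scale, and a log2 difference of 0.58 is 1.5-fold. Differences were tested with limma across all probe sets, with p-values adjusted by Benjamini-Hochberg over all of them. A probe set was called where its adjusted p was below 0.05 and its change at least 1.5-fold, and counts at any fold are given beside it. The arrays agreed closely within groups (correlations of 0.994 to 0.998) and array medians ran from 7.39 to 7.51. Markers of luminal epithelium had medians over the arrays of 14.2 for KRT8, 14.8 for KRT18 and 13.9 for GATA3. Further luminal markers had medians of 13.3 for KRT19, 13.1 for EPCAM, 13.6 for CDH1 and 10.5 for ESR1. Markers of other cells had medians of 6.37 for PTPRC (leukocytes), 5.00 for LYZ (myeloid cells), 9.31 for PECAM1 (endothelium), and 9.89 and 7.64 for COL1A1 and COL1A2 (fibroblasts). Levels of different probe sets are not on 1 scale, so these give no order among the markers.

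After 4 h of IGF-I, none of the 17 member probe sets was called in any clone, where 0.0623% and 0.110% of all probe sets were called in IRS-1 #10 and #20, and 0.108% and 0.223% in IRS-2 #1 and #6. At any fold, 6 member probe sets passed the adjusted p in IRS-1 #10, all lower with IGF-I, against 1.81% of all probe sets. In IRS-1 #20, 2 passed, both lower, against 3.08% of all. In IRS-2 #1 none passed, against 1.62%, and in IRS-2 #6, 3 passed, all higher, against 2.35%. The median change of the 8 genes was -0.23 and -0.09 in IRS-1 #10 and #20, and 0.01 and 0.13 in IRS-2 #1 and #6, beside a median of -0.01 for all genes in each clone. On the brightest probe sets the fitted changes of all 8 genes were below 0 in IRS-1 #10, where 4 genes passed the test, and above 0 in IRS-2 #6, where 3 passed. For REL in IRS-2 #6 the sign depended on the probe set, with 3 of 5 below 0 and a mean over them of -0.01, and on the arrays, with -0.01 on the brightest without replicate A.

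**Figure D1:**
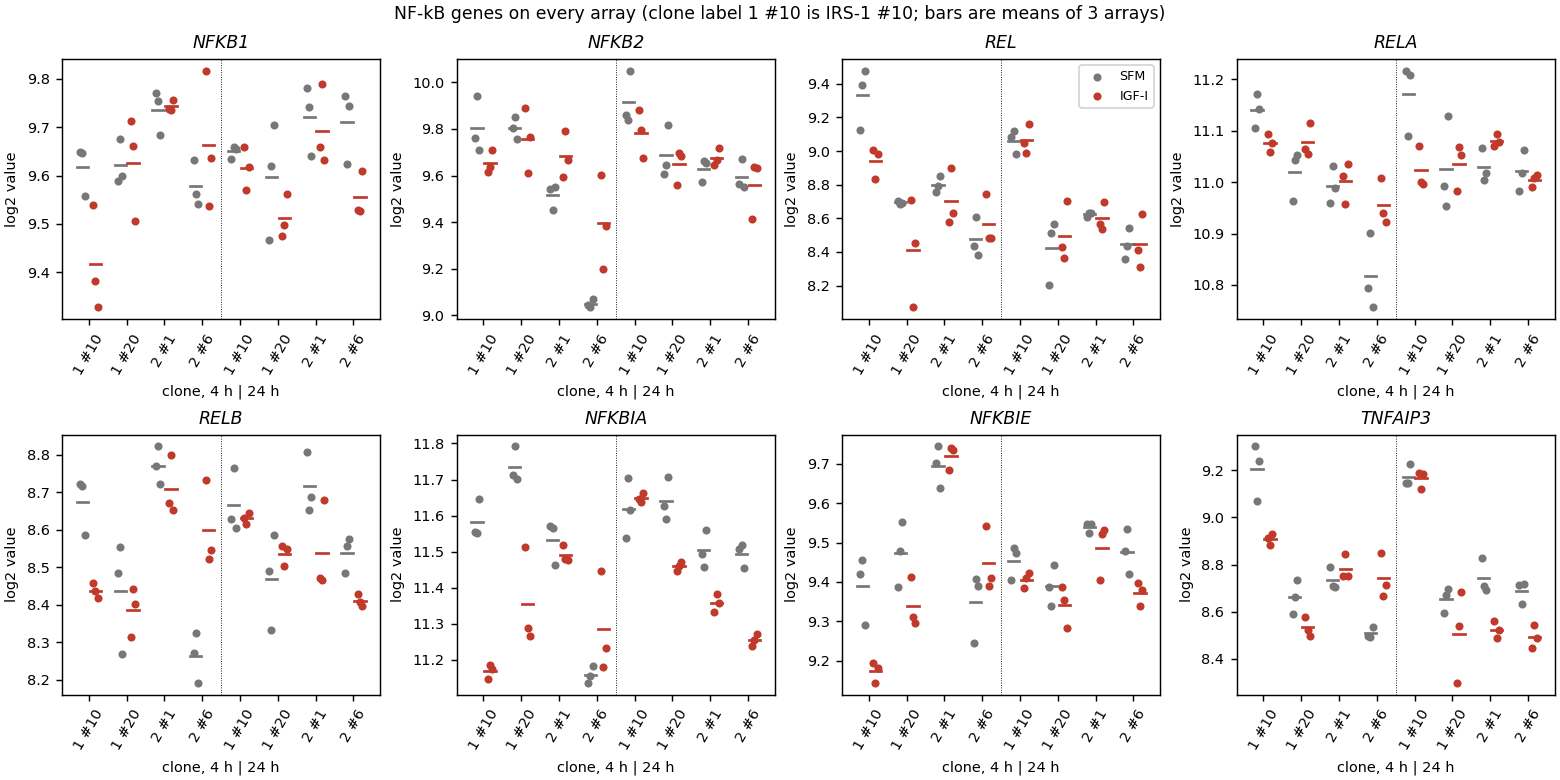
Log2 values of the 8 genes on all 48 arrays (y axis), by clone at 4 h and then at 24 h (x axis), with SFM arrays in grey, IGF-I arrays in red and a bar at the mean of each group of 3. Each gene is shown by its brightest probe set. NFKBIA at 4 h shows separate SFM and IGF-I arrays in both IRS-1 clones. On these probe sets the SFM arrays of IRS-2 #6 at 4 h lie lowest of all 48 arrays for NFKB2 and RELA.

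Among the inhibitors, NFKBIA encodes IkB-alpha, which binds NF-kB dimers and returns them to the cytoplasm. In IRS-1 #10 its SFM arrays at 4 h read 11.55, 11.55 and 11.65 and its IGF-I arrays 11.15, 11.19 and 11.17. In IRS-1 #20 the SFM arrays read 11.71, 11.79 and 11.70 and the IGF-I arrays 11.51, 11.29 and 11.26. In both IRS-1 clones every IGF-I array lay below every SFM array. The change was -0.41 in IRS-1 #10 (SE 0.052, adjusted p = 4.01e-07) and -0.38 in IRS-1 #20 (SE 0.052, adjusted p = 1.8e-06), and it passed the adjusted p whichever of the 6 arrays of either comparison was left out.

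In IRS-2 #1 NFKBIA read 11.57, 11.57 and 11.46 in SFM and 11.52, 11.48 and 11.48 with IGF-I. In IRS-2 #6 it read 11.14, 11.15 and 11.18 in SFM and 11.44, 11.18 and 11.23 with IGF-I. The groups overlapped in both clones, and in IRS-2 #6 the IGF-I array of replicate A was highest. The changes of NFKBIA were -0.04 (95% interval -0.15 to 0.06, adjusted p = 0.877) and 0.13 (0.02 to 0.23, adjusted p = 0.26). The second NFKBIA probe set, with arrays between 6.65 and 7.18, moved by -0.09 to 0.21 over the 8 IGF-I comparisons and did not pass the test in any.

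NFKBIE encodes IkB-epsilon, a further cytoplasmic inhibitor. In IRS-1 #10 at 4 h it read 9.42, 9.46 and 9.29 in SFM and 9.19, 9.14 and 9.18 with IGF-I, with no overlap between groups. NFKBIE fell there by 0.22 (SE 0.054, adjusted p = 0.0225), a call lost when any of 5 of the 6 arrays was left out (adjusted p of 0.052 to 0.144). Its changes in the other clones at 4 h were -0.13 in IRS-1 #20, and 0.02 and 0.10 in IRS-2 #1 and #6, none past the test.

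TNFAIP3 encodes the enzyme known as A20, which edits ubiquitin chains on signalling proteins upstream of the IkB kinases. In IRS-1 #10 it read 9.30, 9.07 and 9.24 in SFM and 8.91, 8.88 and 8.93 with IGF-I at 4 h. In IRS-2 #6 it read 8.50, 8.49 and 8.54 in SFM and 8.85, 8.67 and 8.71 with IGF-I. The groups did not overlap in either clone and lay in opposite order. TNFAIP3 fell by 0.30 in IRS-1 #10 (SE 0.065, adjusted p = 0.00663), and its second probe set fell by 0.40 (adjusted p = 0.00188). It rose by 0.24 in IRS-2 #6 (SE 0.065, adjusted p = 0.036), where its second probe set changed by 0.17 and did not pass (adjusted p = 0.428). The rise was lost when any of 5 of the 6 arrays was left out, with an adjusted p of up to 0.217 without the IGF-I array of replicate A, and the fall was lost without the SFM array of replicate A (-0.25, adjusted p = 0.0568). In IRS-1 #20 and IRS-2 #1 the changes of TNFAIP3 were -0.13 and 0.05 and did not pass the test.

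REL encodes c-Rel, a subunit with a transactivation domain best known from lymphocytes. On its brightest probe set it read 9.13, 9.39 and 9.48 in SFM and 9.0, 8.83 and 8.98 with IGF-I in IRS-1 #10 at 4 h. Every IGF-I array lay below every SFM array. REL fell there by 0.39 (SE 0.107, adjusted p = 0.0412), and probe set 206036_s_at fell by 0.39 too (SE 0.094, adjusted p = 0.0172). The call on the brightest probe set was lost when any of 5 of the 6 arrays was left out (adjusted p of up to 0.235). In IRS-1 #20, REL probe set 228812_at read 7.56, 7.50 and 7.86 in SFM and 7.35, 6.97 and 7.26 with IGF-I and fell by 0.45 (SE 0.123, adjusted p = 0.0313). The brightest probe set changed by -0.28 in that clone (adjusted p = 0.153). In IRS-2 #1 and IRS-2 #6 it changed by -0.10 and 0.09, with groups that overlapped. The other 4 REL probe sets ran from -0.17 to 0.08 in IRS-2 #6 and none passed.

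NFKB2 and RELB encode the partners of the alternative NF-kB pathway, NFKB2 as a precursor protein that is processed to a DNA-binding subunit. In IRS-2 #6 at 4 h NFKB2 read 9.04, 9.03 and 9.07 in SFM and 9.60, 9.20 and 9.38 with IGF-I. RELB read 8.27, 8.33 and 8.19 in SFM and 8.73, 8.52 and 8.55 with IGF-I. Neither gene's groups overlapped. NFKB2 rose by 0.35 (SE 0.077, adjusted p = 0.0043) and RELB rose by 0.34 (SE 0.070, adjusted p = 0.00168). Without the IGF-I array of replicate A, which was the highest of its group of 3 for all 8 genes, NFKB2 differed by 0.24 (adjusted p = 0.109) and RELB by 0.27 (adjusted p = 0.0382). NFKB2 differed by 0.17 in IRS-2 #1, with every IGF-I array above every SFM array, and did not pass the test (adjusted p = 0.398). In IRS-1 #10 RELB read 8.72, 8.72 and 8.59 in SFM and 8.46, 8.44 and 8.42 with IGF-I, and this change of -0.24 did not pass either (adjusted p = 0.0632), although the groups did not overlap. The other NFKB2 probe sets changed by 0.17 and -0.05 in IRS-2 #6 and did not pass, nor did the mean over all 3 (0.16, adjusted p = 0.168).

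RELA and NFKB1 encode the subunits of the most common NF-kB dimer. On the brightest probe sets their changes at 4 h ran from -0.20 to 0.14 over the clones and none passed the test. NFKB1 read 9.65, 9.65 and 9.56 in SFM and 9.54, 9.38 and 9.33 with IGF-I in IRS-1 #10, a change of -0.20 (95% interval -0.33 to -0.07, adjusted p = 0.0862). RELA ran from -0.06 in IRS-1 #10 to 0.14 in IRS-2 #6 (adjusted p = 0.0836 in IRS-2 #6).

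**Figure D2:**
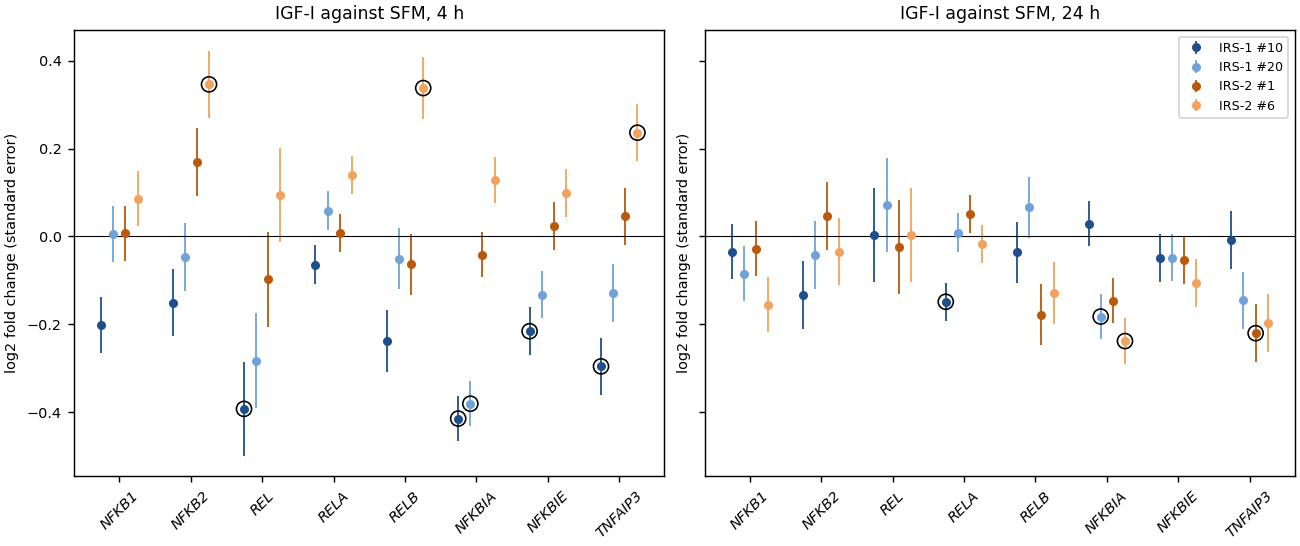
Log2 fold change of IGF-I over SFM (y axis, bars are standard errors of the fit) for the 8 genes (x axis) in the 4 clones at 4 h and 24 h, with a ring around each value whose adjusted p was below 0.05. At 4 h the blue IRS-1 clones lie at or below 0 for NFKBIA, TNFAIP3 and REL and IRS-2 #6 lies above 0 for all 8 genes on these brightest probe sets (REL is at -0.01 as the mean of its probe sets or without replicate A), while at 24 h all values lie between -0.24 and 0.07.

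Whether the isoforms differed in their response was tested directly, as the mean response of the 2 IRS-2 clones minus that of the 2 IRS-1 clones. At 4 h the difference was positive for all 8 genes, with a median of 0.31 beside 0.00 for all genes. No member was called at 1.5-fold, where 0.0293% of all probe sets were called. At any fold, 5 of the 17 member probe sets passed the adjusted p, all positive, against 0.260% of all probe sets. Most genes that passed were positive as well, with 0.389% of all genes positive and 0.0506% negative. The 5 member probe sets belonged to NFKBIA, TNFAIP3, NFKB2 and NFKBIE. NFKBIA differed by 0.44 (SE 0.052, adjusted p = 2.85e-07), TNFAIP3 by 0.35 (adjusted p = 0.00226) and 0.41 on its second probe set (adjusted p = 0.00454). NFKB2 differed by 0.36 (adjusted p = 0.0162) and NFKBIE by 0.24 (adjusted p = 0.0324). RELB, with 0.28, did not pass (adjusted p = 0.0689), nor did REL, with 0.34 (95% interval 0.12 to 0.55, adjusted p = 0.353). In a fit to genes in place of probe sets, with the mean over a gene's probe sets, RELB passed (adjusted p = 0.0297). RELB has 1 probe set, so its difference of 0.28 was the same, and only the fit and adjustment over genes differed. NFKB2 did not pass there (0.21, adjusted p = 0.137).

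The clones did not weigh equally in this difference. NFKBIA passed with any clone left out, with differences of 0.36 without IRS-2 #6 (adjusted p = 0.00434) to 0.53 without IRS-2 #1 (adjusted p = 5.41e-07). TNFAIP3 did not pass without IRS-1 #10 (0.27, adjusted p = 0.25) or without IRS-2 #6 (0.26, adjusted p = 0.6). NFKB2 did not pass without IRS-1 #10 (0.30, adjusted p = 0.292) or without IRS-2 #6 (0.27, adjusted p = 0.77), and NFKBIE lost its call whichever of the 4 clones was left out. Between the clones of an isoform no member differed in its response at 4 h, where 0.0366% of all probe sets passed the adjusted p for IRS-1 #20 against #10 and 0.00183% for IRS-2 #6 against #1. The fitted responses of all 8 genes were more positive in IRS-1 #20 than in #10 (median 0.12) and in IRS-2 #6 than in #1 (median 0.17).

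**Figure D3:**
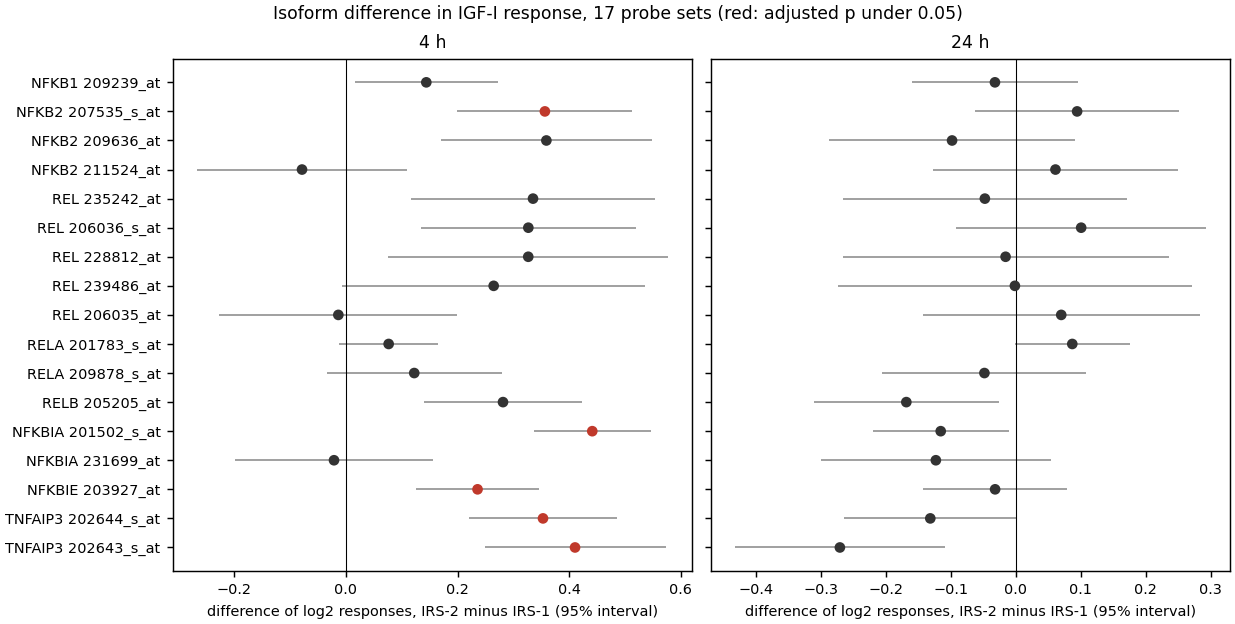
Difference of the log2 IGF-I response, IRS-2 clones minus IRS-1 clones (x axis, points with 95% intervals of the fit), for each of the 17 member probe sets (y axis) at 4 h and 24 h, in red where the adjusted p was below 0.05. At 4 h the red points are NFKBIA, both TNFAIP3 probe sets, NFKB2 and NFKBIE, and at 24 h there are none.

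After 24 h few member probe sets passed the test, and their changes were small. No member was called at 1.5-fold, where 0.251% and 0.251% of all probe sets were called in IRS-1 #10 and #20, and 0.0476% and 0.0787% in IRS-2 #1 and #6. At any fold, 1 member probe set passed in each of IRS-1 #10, IRS-1 #20 and IRS-2 #1 and 2 passed in IRS-2 #6, all lower with IGF-I, against 8.01%, 7.20%, 3.15% and 3.84% of all probe sets. The share of the 17 was thus below that of all probe sets in both IRS-1 clones and above it in both IRS-2 clones. The median change of the 8 genes lay between -0.12 and -0.04 in the 4 clones.

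NFKBIA at 24 h read 11.51, 11.52 and 11.45 in SFM and 11.24, 11.25 and 11.27 with IGF-I in IRS-2 #6. In IRS-1 #20 it read 11.63, 11.59 and 11.71 in SFM and 11.44, 11.46 and 11.47 with IGF-I. The groups did not overlap in either clone. NFKBIA fell by 0.24 in IRS-2 #6 (SE 0.052, adjusted p = 0.0028) and by 0.18 in IRS-1 #20 (SE 0.052, adjusted p = 0.0184). The fall in IRS-1 #20 was lost when any of 3 of the 6 arrays was left out (adjusted p of up to 0.104), and the fall in IRS-2 #6 with none. In IRS-1 #20 the SFM array of replicate C was the highest of its group of 3 for all 8 genes. Without that array the change of NFKBIA was -0.15. In IRS-1 #10, where NFKBIA had fallen at 4 h, it read 11.54, 11.70 and 11.62 in SFM and 11.65, 11.64 and 11.66 with IGF-I, a change of 0.03 (95% interval -0.08 to 0.13, adjusted p = 0.829).

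TNFAIP3 at 24 h fell by 0.22 in IRS-2 #1 (adjusted p = 0.0493), a call lost whichever of its 6 arrays was left out (adjusted p of up to 0.267), and its second probe set changed there by -0.18 (adjusted p = 0.295). In IRS-2 #6 the second probe set fell by 0.30 (adjusted p = 0.0189) and the first changed by -0.20 (adjusted p = 0.0837). RELA fell by 0.15 in IRS-1 #10 (adjusted p = 0.0226), from 11.22, 11.09 and 11.21 in SFM to 11.07, 11.00 and 11.00 with IGF-I, and this was lost when any of 4 of the 6 arrays was left out (adjusted p of up to 0.141). The second RELA probe set changed by 0.04 there, with arrays that overlapped (adjusted p = 0.832), and the mean of both by -0.05 (adjusted p = 0.592). NFKB1, NFKB2, REL, RELB and NFKBIE passed in no clone at 24 h. No member probe set passed for a difference between the isoforms in 24 h response, where 0.0586% of all probe sets were called and 0.476% passed at any fold. With the mean over a gene's probe sets in place of single probe sets, TNFAIP3 did differ at 24 h (-0.20, adjusted p = 0.0324). The median difference of the 8 genes was -0.04, with NFKBIA at -0.12 (95% interval -0.22 to -0.01, adjusted p = 0.524). Between the clones of an isoform no member passed at 24 h either, against 1.05% of all probe sets for IRS-1 #20 against #10 and 0.00183% for IRS-2 #6 against #1.

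The change of response from 4 h to 24 h ran in opposite directions in IRS-1 #10 and IRS-2 #6. In IRS-1 #10, 2 of the 17 member probe sets passed at any fold, against 2.54% of all, with NFKBIA more positive at 24 h by 0.44 (adjusted p = 7.21e-05) and the second TNFAIP3 probe set by 0.46 (adjusted p = 0.0121). In IRS-2 #6, 4 passed, against 0.976% of all, with RELB at -0.47 (adjusted p = 0.00486), NFKBIA at -0.37 (adjusted p = 0.00212) and TNFAIP3 at -0.43 (adjusted p = 0.00549) and -0.47 (adjusted p = 0.0201). None passed in IRS-1 #20, against 4.79% of all, or in IRS-2 #1, against 0.958%.

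The SFM arrays also changed with time, and this touches the values of IRS-2 #6, since its SFM arrays at 4 h serve both in the 4 h response and in the comparison of SFM at 24 h with SFM at 4 h. In that clone 7 of the 17 member probe sets passed at any fold, against 12.8% of all probe sets. NFKB2 in SFM read 9.04, 9.03 and 9.07 at 4 h and 9.56, 9.67 and 9.55 at 24 h, a rise of 0.55 (SE 0.077, adjusted p = 9.35e-07). NFKBIA read 11.14, 11.15 and 11.18 at 4 h and 11.51, 11.52 and 11.45 at 24 h, a rise of 0.34 (SE 0.052, adjusted p = 5.03e-06). RELB rose by 0.28 (adjusted p = 0.00536), RELA by 0.20 (adjusted p = 0.000921), the second NFKB2 probe set by 0.40 (adjusted p = 0.00267) and the second TNFAIP3 probe set by 0.24 (adjusted p = 0.037), and REL probe set 206035_at fell by 0.30 (adjusted p = 0.0478).

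On the brightest probe sets, the 3 SFM arrays of IRS-2 #6 at 4 h were the 3 lowest of all 48 arrays for NFKB2 and for RELA. On the same measure 2 of them were among the 3 lowest for NFKBIA and for RELB. On the other probe sets, 1 of the 3 arrays was among the 3 lowest for the second of NFKB2 and of RELA. There were 0 for the third of NFKB2 and the second of NFKBIA. In IRS-1 #20, 2 REL probe sets were lower at 24 h in SFM (206036_s_at by -0.36, adjusted p = 0.00468, and 228812_at by -0.55, adjusted p = 0.00119), against 20.8% of all probe sets. No member passed in IRS-1 #10, against 1.83% of all, or in IRS-2 #1, against 5.33%.

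Without IGF-I the clones differed in the level of most members. Over the 6 pairs of clones, 8 of the differences of member probe sets were called and 56 passed at any fold. Against IRS-1 #10, 3 member probe sets were called in IRS-1 #20 (3.37% of all), 1 in IRS-2 #1 (8.49% of all) and 4 in IRS-2 #6 (8.75% of all), all lower. None was called between IRS-2 #1 and IRS-1 #20 (7.75% of all), IRS-2 #6 and IRS-1 #20 (6.39%) or IRS-2 #6 and IRS-2 #1 (1.07%).

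REL carried 7 of these 8 differences. On its brightest probe set the SFM mean was 9.20 ± 0.19 (SD, n = 6) and 8.56 ± 0.19 in IRS-1 #10 and #20, and 8.71 ± 0.10 and 8.46 ± 0.10 in IRS-2 #1 and #6. On this probe set IRS-1 #10 stood above the other clones. REL differed from IRS-1 #10 by -0.64 in IRS-1 #20 (adjusted p = 1.14e-09), by -0.49 in IRS-2 #1 (adjusted p = 3.5e-07) and by -0.74 in IRS-2 #6 (adjusted p = 9.27e-12). On REL probe set 239486_at the differences from IRS-1 #10 were -0.63 in IRS-1 #20, and -0.78 and -1.14 in IRS-2 #1 and #6. On 228812_at and 206035_at IRS-2 #1 differed from IRS-1 #10 by -0.12 (adjusted p = 0.273) and -0.14 (adjusted p = 0.0994), and on 206035_at IRS-1 #20 by -0.15 (adjusted p = 0.124), none past the test. Between IRS-2 #1 and IRS-1 #20 the brightest REL probe set did not pass the test, and 206036_s_at and 228812_at were higher in IRS-2 #1 by 0.21 and 0.56.

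TNFAIP3 had the same clone at the top. Its SFM mean was 9.19 ± 0.08 (SD, n = 6) and 8.66 ± 0.06 in IRS-1 #10 and #20, and 8.74 ± 0.06 and 8.60 ± 0.10 in IRS-2 #1 and #6. TNFAIP3 differed from IRS-1 #10 by -0.53 in IRS-1 #20 (adjusted p = 1.25e-13), by -0.45 in IRS-2 #1 (adjusted p = 1.05e-11) and by -0.59 in IRS-2 #6 (adjusted p = 1.81e-15), of which the last was called. On its second probe set the means were 8.35, 7.78, 7.98 and 7.94 in the same order of clones, so that IRS-1 #20 was lowest there and IRS-2 #6 on the first.

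On their brightest probe sets NFKB2 and NFKBIA were lowest in IRS-2 #6. NFKB2 in SFM had a mean of 9.86 ± 0.12 (SD, n = 6) and 9.75 ± 0.10 in IRS-1 #10 and #20, and 9.57 ± 0.08 and 9.32 ± 0.30 in IRS-2 #1 and #6. NFKBIA had means of 11.60 ± 0.07, 11.69 ± 0.07, 11.52 ± 0.05 and 11.32 ± 0.19 in the same order. On these probe sets the SFM arrays of IRS-2 #6 spread most, with those at 4 h below those at 24 h for both genes. The second NFKB2 probe set had means of 8.30, 8.22, 8.31 and 8.18 in the same order. Its difference of IRS-2 #6 from IRS-1 #10 was -0.12 and did not pass (adjusted p = 0.106). The third had means of 6.47, 6.38, 6.31 and 6.42, and the second NFKBIA probe set 6.91, 7.01, 6.91 and 6.91. NFKBIE was highest in IRS-2 #1, by 0.20 over IRS-1 #10 (adjusted p = 2.18e-05), and NFKB1 did not differ between clones beyond the test except for 0.12 in IRS-2 #1 over IRS-1 #20 (adjusted p = 0.0209). At any fold, 8 member probe sets passed between IRS-1 #20 and #10 (31.8% of all), 11 between IRS-2 #1 and IRS-1 #10 (53.4%), 12 between IRS-2 #6 and IRS-1 #10 (54.8%), 8 between IRS-2 #1 and IRS-1 #20 (51.6%), 6 between IRS-2 #6 and IRS-1 #20 (50.5%) and 11 between IRS-2 #6 and IRS-2 #1 (19.3%). The members' share was above that of all probe sets in 4 of the 6 pairs, by most in IRS-2 #6 against IRS-2 #1, and below it in both pairs of an IRS-2 clone with IRS-1 #20. The 5 REL probe sets read the same gene and are not separate evidence.

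**Figure D4:**
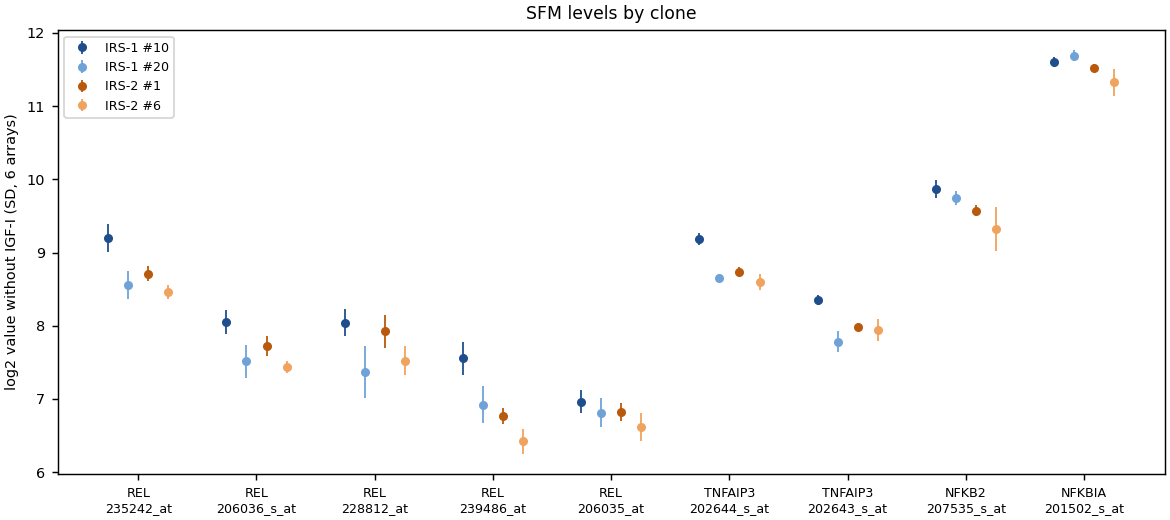
Log2 values without IGF-I (y axis, mean and SD of 6 SFM arrays) by clone for the 5 REL probe sets, both TNFAIP3 probe sets, NFKB2 and NFKBIA (x axis). IRS-1 #10 lies highest for all REL and TNFAIP3 probe sets, at 9.20 and 9.19 on the brightest of each. IRS-2 #6 lies lowest for NFKB2 and NFKBIA, which are shown by their brightest probe sets only.

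A sign of RNA quality moved with the clones. The log2 difference between the 3′ and 5′ probe sets of ACTB had SFM means of 0.242 and 0.199 in IRS-1 #10 and #20, and 0.153 and 0.115 in IRS-2 #1 and #6, and it was lower with IGF-I in all 8 comparisons, with differences of -0.0473 to -0.0114. With this difference as a covariate, 9 member differences between clones were called in SFM in place of 8, and the 4 h change of NFKBIA was -0.43 in IRS-1 #10 and -0.39 in IRS-1 #20.

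Over the 16 group means the members did not move as 1 block. REL and TNFAIP3 had a Pearson correlation of 0.92, NFKB2 and RELA 0.896, and NFKB1 and NFKBIE 0.891, whereas NFKB1 had 0.043 with NFKB2. These are descriptions over 16 groups that share clones.

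The other genes of the pathway were read from lists of 22 receptors and adaptors, 12 kinases, 14 further inhibitors and regulators, and 38 target genes with a probe set. Of all probe sets, 0.0623% and 0.110% were called at 4 h in IRS-1 #10 and #20, and 0.108% and 0.223% in IRS-2 #1 and #6. After 4 h of IGF-I, 6 differences on these lists were called, all higher. CCL2, which encodes a chemokine for monocytes, made up 4 of them. It rose by 0.64 and 0.98 in IRS-1 #10 and #20, and 0.93 and 1.34 in IRS-2 #1 and #6, so that it rose in the IRS-1 clones where NFKBIA fell. The CCL2 rise in IRS-1 #10 was 0.53, under 1.5-fold, without the SFM array of replicate C.

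TNFRSF12A, the receptor for the cytokine TWEAK, and IER3, an early response gene, were called at 4 h in IRS-2 #6, by 0.66 and 0.61. TNFRSF12A also passed in the other clones, with 0.28 and 0.50 in IRS-1 #10 and #20, and 0.50 in IRS-2 #1. IER3 was 0.53 in IRS-2 #6 without the IGF-I array of replicate A. Of the 38 target genes, 10 passed the adjusted p in IRS-2 #6 at any fold, all higher, and 1 was higher and 2 lower in IRS-1 #10, 1 higher and 2 lower in IRS-1 #20, and 2 higher in IRS-2 #1. Over all genes on the same measure, 1.89% were higher and 1.58% lower in IRS-2 #6. The shares higher and lower were 1.18% and 1.47% for IRS-1 #10, 1.17% and 3.54% for #20 of that isoform, and 1.53% and 0.794% for IRS-2 #1. The medians of the target list at 4 h ran from 0.03 in IRS-1 #10 to 0.08 in IRS-2 #6.

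The kinases of the pathway moved little. CHUK, which encodes IkB kinase alpha, rose by 0.24 in IRS-1 #10 and 0.29 in IRS-2 #1 at 4 h and by 0.22 in IRS-1 #20 at 24 h. IKBKB, which encodes IkB kinase beta, fell in IRS-1 #20 by 0.24 at 4 h (adjusted p = 0.0288) and by 0.21 at 24 h (adjusted p = 0.0403). IKBKG, the scaffold of the kinase complex, passed in no comparison.

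After 24 h the list genes called were CCL2 in IRS-1 #10 (0.66), TLR3, a receptor for double-stranded RNA, in IRS-1 #20 (0.68), the death receptor gene FAS in IRS-1 #20 (0.62) and the chemokine gene CCL20 in IRS-2 #6 (-1.01). Of all probe sets, 0.251% were called at 24 h in each IRS-1 clone, 0.0476% in IRS-2 #1 and 0.0787% in IRS-2 #6. FAS was 0.54 without the SFM array of replicate A and 0.57 without the IGF-I array of replicate B of its comparison, both under 1.5-fold. FAS also passed in the other 3 clones at smaller folds (0.30 to 0.43). In IRS-2 #6, 6 target genes were lower and 2 were higher at any fold, beside 4.34% of all genes lower and 1.42% higher. In IRS-1 #10, 5 were higher and 0 lower, beside 4.39% of all genes higher and 6.65% lower. In IRS-1 #20, 4 were higher and 1 lower, beside 7.46% and 2.95% of all genes. In IRS-2 #1, 2 were higher and 2 lower, beside 2.93% and 1.62%.

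The isoforms differed at 24 h in 2 target genes at 1.5-fold, where 0.0586% of all probe sets were called. The mean of CCL20 went from 8.38 in SFM to 7.37 with IGF-I in IRS-2 #6 and from 7.90 to 7.41 in IRS-2 #1. It went from 6.26 to 6.62 in IRS-1 #10 and from 6.06 to 5.98 in IRS-1 #20. At 4 h the SFM mean of CCL20 had been lower in the IRS-2 clones, at 7.13 in #6 and 7.31 in #1. In IRS-1 #10 and #20 it had been 6.27 and 5.99. The part of this change in SFM in the 24 h responses was not tested. The difference of responses, IRS-2 minus IRS-1, was -0.90 (SE 0.130, adjusted p = 1.29e-05). CXCL10, a chemokine gene named here after its values were seen, differed by -0.71 (SE 0.071, adjusted p = 9.88e-10). Its responses were 0.44 and 0.42 in IRS-1 #10 and #20, and -0.32 in IRS-2 #6. In IRS-2 #1 the response of -0.24 did not pass the test (adjusted p = 0.0515). The SFM mean of CXCL10 in IRS-2 #6 was 8.65 at 4 h and 9.61 at 24 h. At 4 h the isoform differences of IER3 (0.40, adjusted p = 6.14e-05), CCL2 (0.33, adjusted p = 0.0329) and PLAU (0.32, adjusted p = 0.00994), a protease gene, passed. All were in the direction of NFKBIA and TNFAIP3, which was that of most genes past this test (0.389% of all genes positive and 0.0506% negative). At 24 h TLR3 (-0.45), the regulator NFKBIZ (-0.32), TNFAIP2 (-0.27) and TNFSF10 (-0.33), which encodes the death ligand TRAIL, passed at less than 1.5-fold. PLAU, NFKBIZ, TNFAIP2 and TNFSF10 were also named after their values were seen.

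**Figure D5:**
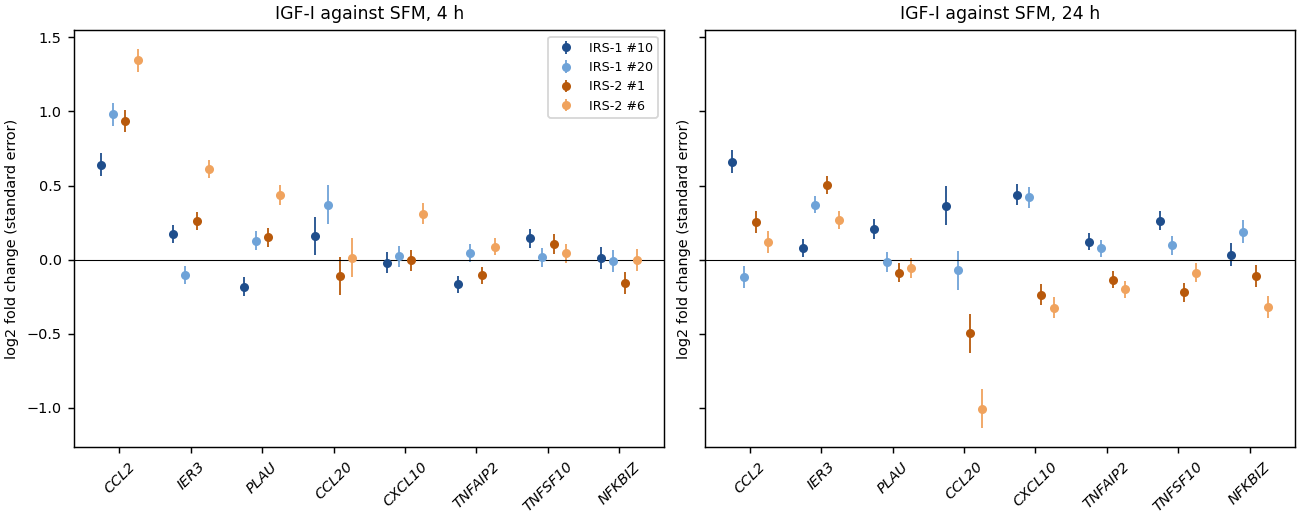
Log2 fold change of IGF-I over SFM (y axis, bars are standard errors of the fit) of the 8 target and regulator genes whose response differed between isoforms at 4 h or 24 h, other than TLR3 (x axis), in the 4 clones. CCL2 lies above 0 in every clone at 4 h, up to 1.34 in IRS-2 #6, and CCL20 and CXCL10 lie below 0 in both IRS-2 clones at 24 h.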

How the data were processed

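The deposited values are log2 expression values of 54675 probe sets, which per the methods the authors made with GC-RMA in GeneData software (GCRMA in the submitters' processing notes, version not given in the sources used here). GC-RMA subtracts background by probe sequence and fits all arrays together, so values of different arrays are comparable and values of different probe sets are not. RNA was isolated with either of 2 kits, and the labels do not say which array had which. On arrays the number of arrays limits the precision, here 3 per group.

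After removal of 62 control probe sets, a mean was fitted for each of 16 groups with limma 3.58.1 in R 4.3.3 (lmFit, eBayes with a trend, 32 residual degrees of freedom), with Benjamini-Hochberg adjustment over all 54613 probe sets within each comparison. Pairs of clones were compared over the SFM arrays of both times. The study's own test was a t-test with a 1.5-fold minimum. GEO's platform annotation gave 1 gene symbol to 41097 probe sets, several to 1801 and none to 11777. No 2 arrays held identical values. The fit was tested on simulated data. Figures were drawn with matplotlib 3.10.9 under Python 3.11.15, with tables read by pandas 2.3.3.

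The members and gene lists were chosen with earlier results of these data known. The genes named were all members, up to 12 genes of the pathway lists called in at least 1 IGF-I comparison, the kinase subunits CHUK, IKBKB and IKBKG, and for each called member the 3 genes most like it, which gave none. Alternatives were the replicate letter as a block, other normalizations, background and variance settings, a filter on dim probe sets, ACTB 3′ minus 5′ as a covariate, a fit to each comparison's own groups, the methods' t-test, no fold threshold, means over a gene's probe sets and leaving out arrays. Counts at any fold and leaving out clones were added after the data were seen.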

Additional observations from a re-analysis of the deposited data

Results flagged for a closer look

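Responses that differed between isoforms at 4 h, by a test of the difference itself at any fold, were those of NFKBIA (0.44), TNFAIP3 (0.35 and 0.41 on its probe sets), NFKB2 (0.36) and NFKBIE (0.24), each as the IRS-2 response minus the IRS-1 response on the log2 scale. For NFKBIA the response was below 0 past the test in both IRS-1 clones and was -0.04 and 0.13 in the IRS-2 clones, whereas for NFKB2 it passed the test in IRS-2 #6 and in no other clone.

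Responses that differed between 24 h and 4 h in the same clone were those of NFKBIA (0.44) and the second TNFAIP3 probe set (0.46) in IRS-1 #10, and those of RELB (-0.47), NFKBIA (-0.37) and TNFAIP3 (-0.43 and -0.47) in IRS-2 #6. The 4 h SFM arrays of IRS-2 #6 were low on the brightest probe sets of NFKB2, RELA, RELB and NFKBIA. The part of this in the time difference was not tested.

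Of the target genes, CCL20 (-0.90) and CXCL10 (-0.71) differed between isoforms in their 24 h response by at least 1.5-fold.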

How the results depend on the processing

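For single genes, 26 results were recomputed under each alternative. They were members past the test for IGF-I response or isoform difference on their brightest probe set, and list genes called in response to IGF-I. Of the recomputed values 363 kept their side of the threshold and 130 lost it, with none turning direction. By the methods' t-test 22 kept it at an unadjusted p, while 1 kept it and 21 lost it after Benjamini-Hochberg. Isoform differences of list genes, including CCL20 and CXCL10, and further probe sets of members were not recomputed singly. Values that had not passed could turn, as REL in IRS-2 #6 at 4 h did, from 0.09 to -0.01. In a fit to the mean over each gene's probe sets, RELB in IRS-1 #10 (-0.24, adjusted p = 0.0355) also passed at 4 h. So did TNFAIP3 (-0.19, adjusted p = 0.0212) and REL (-0.29, adjusted p = 0.0193) in IRS-1 #20, and at 24 h TNFAIP3 in IRS-2 #6 (-0.25, adjusted p = 0.00119). Of the results recomputed on these means, 8 kept their side of the threshold and 7 lost it. RELB has 1 probe set, so its change was the same as before, and only the fit and adjustment over genes differed. The isoform difference of NFKBIA at 4 h passed under all 16 alternatives (0.21 to 0.53).

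With no fold threshold, member probe sets called rose from 0 to 11 at 4 h, 0 to 5 at 24 h, 8 to 56 between clones, 0 to 9 for SFM over time, 0 to 5 for the isoform difference and 0 to 6 for the 24 h against 4 h response, and pathway genes from 6 to 33 at 4 h and from 4 to 41 at 24 h. For SFM over time, quantile normalization and normexp each gave 1, median centring 2, and leaving out the arrays of a letter 0 to 1, as for the 24 h against 4 h response (0 to 1). The methods' t-test after Benjamini-Hochberg called 0 pathway genes at 4 h and 1 at 24 h.

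At any fold, the 11 member probe sets at 4 h became 7 with median centring, 5 in each comparison's own groups, 20 by the methods' t-test at an unadjusted p, 0 after Benjamini-Hochberg and 3 to 13 with arrays left out. The 5 at 24 h became 3 with median centring, 11 by the t-test at an unadjusted p, 0 after Benjamini-Hochberg and 0 to 6 with arrays left out. The 5 isoform differences at 4 h became 3 in their own groups, 1 without IRS-1 #10, 1 without IRS-2 #6 and 1 to 2 with the arrays of a letter left out. The causes were not tested.

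Replicate letters did not pair the arrays: of 24 correlations of deviations between arrays with the same letter, from -0.44 to 0.30, 3 were over 0.1. With the letter as a replicate block, the 24 h count was 3 and the isoform count 3, where NFKB2 (adjusted p = 0.0502) and NFKBIE (adjusted p = 0.284) no longer passed. Precision is limited by 3 arrays a group and 2 clones an isoform.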

Other observations

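Since no member was called in response to IGF-I, the rule for naming similar genes returned none. A wider version, chosen after the data were seen, took the members that differed between isoforms at 4 h and compared their group means with those of 18800 genes over the 16 groups. The genes most like NFKBIA were ZGPAT (Pearson correlation 0.859), OPTN (0.842) and METTL25B (0.796). Those most like TNFAIP3 were EGFL7 (0.929), SPACA9 (0.921) and SPATA17 (0.921). For NFKB2 they were ABHD11 (0.889), MIDN (0.885) and MORC3 (0.884), and for NFKBIE CIAO3 (0.883), PPARA (0.879) and SLC71A1 (0.865). The groups share clones, and each name is the top of 18800, so these are descriptions only.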
